A study of Mus musculus with 3 samples.

Results

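A set of 9 genes used by sebaceous glands (*Aldh3a1*, *Defb8*, *Far2*, *Elovl4*, *Fa2h*, *Scd1*, *Krt79*, *Mgst1* and *Soat1*) was followed through skin wound healing in mice. The 9 genes were picked by symbol from the 32285 genes of the count tables, and all 9 were found there, each once. The measurements were spatial transcriptomes on the Visium platform, in which each spot of a slide captures polyadenylated RNA from the tissue above it and every molecule is counted once by its unique molecular identifier (UMI). Full-thickness wounds were made with a biopsy punch in the shaved back skin of young adult male C57BL/6J mice, an inbred wild-type strain, and frozen sections were taken on Day 3, Day 7 and Day 14. There was 1 section per day and no section of unwounded skin, so no test between days was possible, and every interval below is a 95% interval that covers counting error only.

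The sebaceous gland is a lobed gland that opens into the upper hair follicle. Its cells mature from the rim to the centre, fill with lipid, burst, and release sebum, a mixture rich in triglycerides, wax esters and sterol esters. The enzymes that lengthen, desaturate, hydroxylate, reduce and esterify fatty acids are therefore strongly expressed there, and several of them are also used by fat cells and by the barrier-forming cells of the epidermis. A Visium spot covers several cells, so a spot can hold gland, follicle, epidermis and dermis together.

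By role, *Scd1* (chr19:44394455-44407879 of GRCm38) encodes the stearoyl-CoA desaturase that makes monounsaturated fatty acids, *Elovl4* (chr9:83778692-83806277) an elongase of very long chain fatty acids, and *Fa2h* (chr8:111345135-111393824) the fatty acid hydroxylase of the 2 position. *Far2* (chr6:148047259-148182758) encodes a reductase that turns fatty acyl-CoA into the fatty alcohols of wax esters, and *Soat1* (chr1:156424525-156474331) the acyltransferase that makes cholesterol esters. *Mgst1* (chr6:138140316-138156755) is a microsomal glutathione transferase, and *Aldh3a1* (chr11:61207537-61218421) an aldehyde dehydrogenase. *Krt79* (chr15:101929332-101940324) is a keratin of the gland duct and upper follicle, and *Defb8* (chr8:19445769-19447606) a beta-defensin, a small secreted antimicrobial peptide. *Krt79* and *Defb8* are thus gland genes but not enzymes. *Defb8* and *Scd1* belong to families of similar sequence, so some of their UMIs may come from related copies.

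Promoter sequence was available for 6 of the 9 genes and not for *Aldh3a1*, *Fa2h* and *Scd1*. The 250 bases before the RefSeq start of the 3 genes below (GRCm38.p6, written in the direction of the gene) are shown because these genes were among the most spatially clustered of the set. They were searched on both strands for AGGTCA, the core site of nuclear receptors such as PPAR gamma, a regulator of lipid-storing cells, and for 2 copies of AGGTCA spaced by 1 base. Capitals mark AGGTCA.
Elovl4, chr9:83806306-83806555, minus strand: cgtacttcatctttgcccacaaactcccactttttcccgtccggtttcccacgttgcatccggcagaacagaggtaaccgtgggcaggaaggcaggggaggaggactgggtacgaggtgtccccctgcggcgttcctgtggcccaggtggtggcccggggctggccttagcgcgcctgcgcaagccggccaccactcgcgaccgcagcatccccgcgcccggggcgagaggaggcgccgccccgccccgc
Krt79, chr15:101940325-101940574, minus strand: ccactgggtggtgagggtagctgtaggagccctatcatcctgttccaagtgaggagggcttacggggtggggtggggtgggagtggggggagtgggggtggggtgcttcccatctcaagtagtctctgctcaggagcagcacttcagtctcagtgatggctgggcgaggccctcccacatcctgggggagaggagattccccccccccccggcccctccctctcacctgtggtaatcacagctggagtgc
Defb8, chr8:19447607-19447856, minus strand: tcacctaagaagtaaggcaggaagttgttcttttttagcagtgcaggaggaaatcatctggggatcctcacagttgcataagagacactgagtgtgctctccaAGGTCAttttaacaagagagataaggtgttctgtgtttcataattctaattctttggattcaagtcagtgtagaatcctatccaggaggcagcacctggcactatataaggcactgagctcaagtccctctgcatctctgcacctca

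*Defb8* held 1 core site, on the strand of the gene and starting at base -147 from the gene start, and neither *Elovl4* nor *Krt79* held one. The same window of *Far2*, not printed because the GENCODE start of the gene lies inside it, held none either, and none of the 4 windows held the spaced repeat. Among all 32851 promoters of the same length, 14.0% held the core site and 11 (0.0335%) held the spaced repeat. The *Defb8* window was 44.0% G and C, whereas those of *Elovl4* and *Krt79* were 69.6% and 64.0%, beside a median of 52.4% over all promoters.

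The sections held between 549 and 697 spots under tissue and between 1772259 and 4611723 UMIs there. Day 3 was the shallowest section, with a median of 1513 UMIs per spot against 6687 on Day 7 and 4827 on Day 14, and 144 of its 664 spots had fewer than 500 UMIs. The marked tissue took 51.0%, 40.8% and 49.4% of the UMIs of the slide on the 3 days, so the unmarked area was not empty. All 4992 spot barcodes occur in every section because they are those of the slide design. Keratinocyte, muscle and fibroblast markers were detected in all 3 sections, whereas the inner root sheath keratins of growing hair were almost confined to Day 14, whose summed level was 2.82, 2.93 and 4825 CPM in day order (UMIs per 1000000 UMIs of all genes).

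Under tissue and per UMI of all genes, the sebaceous gland genes were lowest on Day 7. All 9 were below their Day 3 level on Day 7, and all 9 lay above their Day 7 level on Day 14, although for *Mgst1* the last difference was within counting error and for *Scd1* its log2 ratio turned to between -0.01 and -0.97 with TMM factors and DESeq2 size factors (scalings by the bulk of genes), the mean of spot CPM, the whole slide and the basal keratins as the base. *Scd1* was also higher on Day 7 than on Day 3 in the last 3 of these (0.12, 0.50 and 0.35), and other members changed order when set against other gland genes, as described further on. Per UMI of the basal keratins, *Mgst1* (0.0816 on Day 7 and 0.0431 on Day 14) and *Soat1* (0.0397 and 0.0229) were lower on Day 14 as well. Summed over the members, the level was 5795 CPM on the first of the 3 days, 2839 on the next and 4434 on the last. *Scd1* gave 2734, 1893 and 2017 CPM of these sums. Fewer gland cells in a section and less RNA per gland cell cannot be told apart in these sums, and each section could have cut a different number of glands.

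*Defb8* had the widest swing. Its level was 72.8 CPM (60.8 to 86.5, 129 UMIs) in the Day 3 section, 0.450 CPM (0.0545 to 1.63, 2 UMIs) in the Day 7 section and 83.3 CPM (75.1 to 92.0, 384 UMIs) in the Day 14 section. Day 7 lay far below both other days, and Day 3 and Day 14 overlapped within counting error. The 2 UMIs of Day 7 put its log2 ratio to Day 3 at -7.34 (-10.40 to -5.46), and no UMI was found outside the marked tissue on that day.

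Among the enzymes of wax and sterol esters, *Far2* had 207, 34.7 and 97.6 CPM on the 3 days, each day's interval clear of the others. Its log2 ratio was -2.57 (-2.86 to -2.30) for Day 7 over Day 3 and 1.49 (1.23 to 1.77) for Day 14 over Day 7, so that Day 14 stayed below Day 3 by a log2 ratio of -1.08 (-1.28 to -0.88). *Soat1* had 239, 77.0 and 92.8 CPM on the 3 days. Its Day 14 level was near that of Day 7 (log2 ratio 0.27, 0.06 to 0.48) and below that of Day 3 (log2 ratio -1.37, -1.56 to -1.17).

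The elongase and the hydroxylase followed a common course. *Elovl4* had 1195, 332 and 1015 CPM in day order, and *Fa2h* had 509, 169 and 441 CPM. The Day 14 level lay below that of Day 3 by a log2 ratio of -0.23 for *Elovl4* (-0.31 to -0.16) and -0.21 for *Fa2h* (-0.32 to -0.09), and above it with the mean of spot CPM (0.30 and 0.51). *Scd1* varied least, with 2734, 1893 and 2017 CPM, and was the only member less than 2-fold lower on Day 7 than on Day 3, with a log2 ratio of -0.53 (-0.58 to -0.48).

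*Krt79*, the duct keratin, was the other member besides *Defb8* whose highest level was on Day 14, with 345, 163 and 487 CPM on the 3 days and a log2 ratio of 0.50 (0.37 to 0.63) for Day 14 over Day 3. *Mgst1* had 434, 158 and 175 CPM, with Day 7 and Day 14 within counting error of each other. *Aldh3a1* had 59.2, 11.9 and 26.0 CPM, from only 53 to 120 UMIs a section. The plot of levels by day shows these 9 courses side by side.

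**Figure D1:**
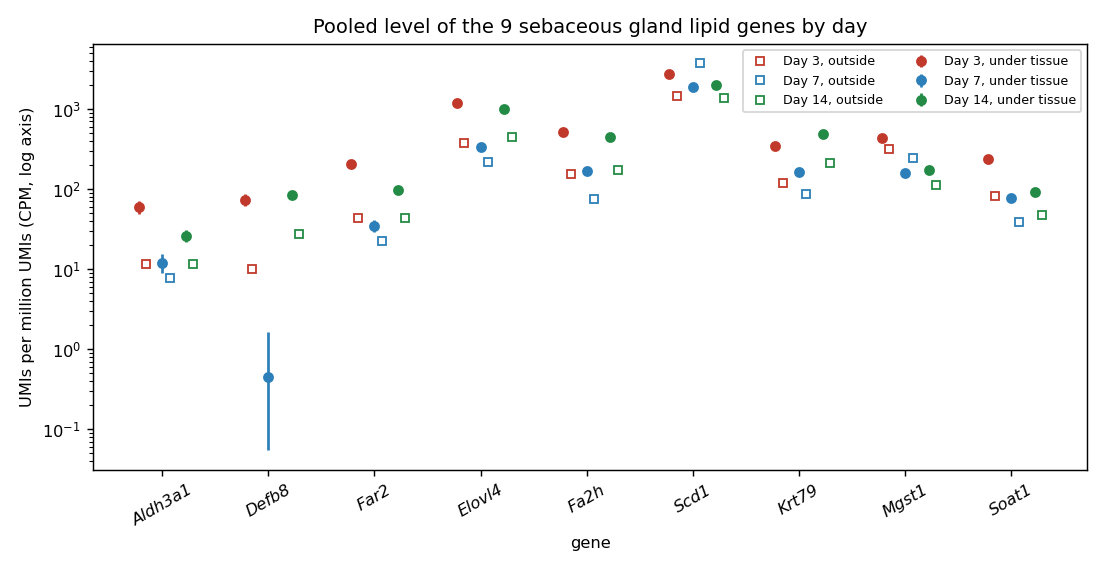
Pooled level of each member in CPM (log axis) on Day 3 (red), Day 7 (blue) and Day 14 (green), with filled circles for spots under tissue, bars for the 95% Poisson interval and open squares for spots outside the marked tissue. The blue circle of *Defb8* lies at 0.450 CPM, far below its red and green circles at 72.8 and 83.3 CPM, and the blue squares of *Scd1* and *Mgst1* lie above their blue circles.

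Counted at a fold of 2, 8 of the 9 members were lower on Day 7 than on Day 3 and none was higher, while 6.49% of the 10541 genes with at least 50 UMIs over both sections were lower by that fold and 8.04% higher. Between Day 14 and Day 3, 4 members (*Aldh3a1*, *Far2*, *Mgst1* and *Soat1*) were lower and none was higher, beside 6.83% and 14.4% of all genes. Between Day 14 and Day 7, 6 members (*Aldh3a1*, *Defb8*, *Far2*, *Elovl4*, *Fa2h* and *Krt79*) were higher and none was lower, beside 10.9% and 7.34%. The members' median log2 ratio was -1.64, -0.44 and 1.39 in these 3 comparisons, whereas the median of all genes was 0.04, 0.18 and 0.13. The comparisons share sections, so their counts are not independent. With the mean of spot CPM in place of pooled sums, which gives a dim spot the weight of a bright one, 4 members in place of 8 were lower on Day 7 than on Day 3, and 1 in place of 4 on Day 14. Per UMI of the basal keratins *Krt5* and *Krt14*, a denominator chosen after the data were seen, 3 members were lower on Day 7 than on Day 3, and *Scd1* turned to a log2 ratio of 0.35. Shares of all genes were counted for the pooled CPM only, so the counts with spot means and basal keratins have no background beside them.

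Of 8 other genes of the gland, called anchors here, 6 were also lowest on Day 7. The wax ester synthases *Awat1* and *Awat2* had 34.4, 5.85 and 33.6 CPM and 31.6, 3.15 and 13.4 CPM on Day 3, Day 7 and Day 14. The gland desaturase *Scd3* had 87.5, 19.4 and 136 CPM, the elongase *Elovl3* 218, 36.2 and 86.3 CPM, and the melanocortin receptor *Mc5r* 16.9, 3.83 and 30.8 CPM. *Acsbg1*, an acyl-CoA synthetase, had 98.7, 41.6 and 101 CPM. The lipid droplet genes *Cidea*, with 93.1, 62.6 and 44.0 CPM, and *Plin5*, with 11.8, 8.55 and 0.651 CPM, which fat cells also express, were lowest on Day 14. Of the 7 anchors with enough UMIs on Day 3 and Day 7 (all but *Mc5r*), 5 were at least 2-fold lower on Day 7. Of the 7 with enough on Day 7 and Day 14 (all but *Plin5*), 6 were at least 2-fold higher on Day 14.

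The genes of general lipid synthesis were mixed. Of 19 such genes with enough UMIs, 5 were at least 2-fold lower on Day 7 than on Day 3 and 2 were higher, with a median log2 ratio of -0.31. *Elovl6* (-1.34, -1.45 to -1.23), an elongase of saturated fatty acids, and *Cers4* (-1.95, -2.12 to -1.79), a ceramide synthase, were among the former. *Fasn* (0.69, 0.59 to 0.79), the fatty acid synthase, was higher on Day 7 by less than 2-fold, and the 2 past the fold were *Acaca* (2.28-fold) and *Fads2* (2.46-fold), an acetyl-CoA carboxylase and a desaturase named after their values were seen. *Elovl5* (-2.08, -2.28 to -1.89), an elongase of polyunsaturated fatty acids, was at least 2-fold lower as well, and *Acly* (-0.56, -0.72 to -0.39), which makes cytosolic acetyl-CoA, differed by less than 2-fold.

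Other tissue parts differed between the sections as well, and their part in the members' levels was not tested. The summed epidermis list had 5039, 2544 and 7188 CPM on Day 3, Day 7 and Day 14, with none of its 10 genes at 0, and 6 of the 10 were at least 2-fold lower on Day 7 than on Day 3. The white fat list had 7556, 7466 and 1962 CPM, the neutrophil list 2097, 152 and 106 CPM, and the macrophage list 4490.3, 2786 and 1130.4 CPM. The gland duct and infundibulum list had 3866, 2143 and 5189 CPM.

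Set against the gland instead of the whole section, the members took different courses, and 1 of the 9 (*Defb8*) stayed at least 2-fold lower on Day 7 than on Day 3, while 6 (*Elovl4*, *Fa2h*, *Scd1*, *Krt79*, *Mgst1* and *Soat1*) had a higher value on Day 7, for *Elovl4* within counting error. This ratio, taken over the summed UMIs of *Awat1*, *Awat2*, *Scd3*, *Mc5r* and *Acsbg1*, was chosen after the data were seen, and no share of all genes was set beside its counts. *Acsbg1* gave 175 of the 477 UMIs of these anchors on Day 3, 185 of 328 on Day 7 and 467 of 1453 on Day 14. The make-up of the base thus changed between days. On Day 3 and Day 14, *Defb8* had 0.270 (0.221 to 0.329) and 0.264 (0.236 to 0.296) UMIs per anchor UMI, whereas on Day 7 it had 0.00610 (0.000735 to 0.0222). *Elovl4* had 4.44, 4.50 and 3.22, and *Fa2h* 1.89, 2.28 and 1.40, both varying by less than 2-fold.

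*Far2* stood lower against the 5 anchors together on each later day, with 0.767 (0.668 to 0.881), 0.470 (0.385 to 0.570) and 0.310 (0.278 to 0.344) UMIs per anchor UMI. The order differed between single anchors. On Day 7, *Far2* was 5.96-fold below its Day 3 CPM, *Awat1* 5.88-fold, *Awat2* 10.0-fold, *Scd3* 4.52-fold, *Mc5r* 4.42-fold and *Acsbg1* 2.37-fold. *Aldh3a1* had 0.220, 0.162 and 0.0826, with the intervals of Day 3 (0.176 to 0.272) and Day 7 (0.119 to 0.217) overlapping. *Soat1* had 0.889, 1.04 and 0.295, and *Mgst1* 1.61, 2.14 and 0.555, both lowest on Day 14. *Krt79*, with 1.28, 2.21 and 1.55, and *Scd1*, with 10.2, 25.6 and 6.40, were highest on Day 7. Against the UMIs of the basal keratins *Krt5* and *Krt14*, *Defb8* again had its low on Day 7, with 0.0204, 0.000232 and 0.0205 UMIs per keratin UMI.

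**Figure D2:**
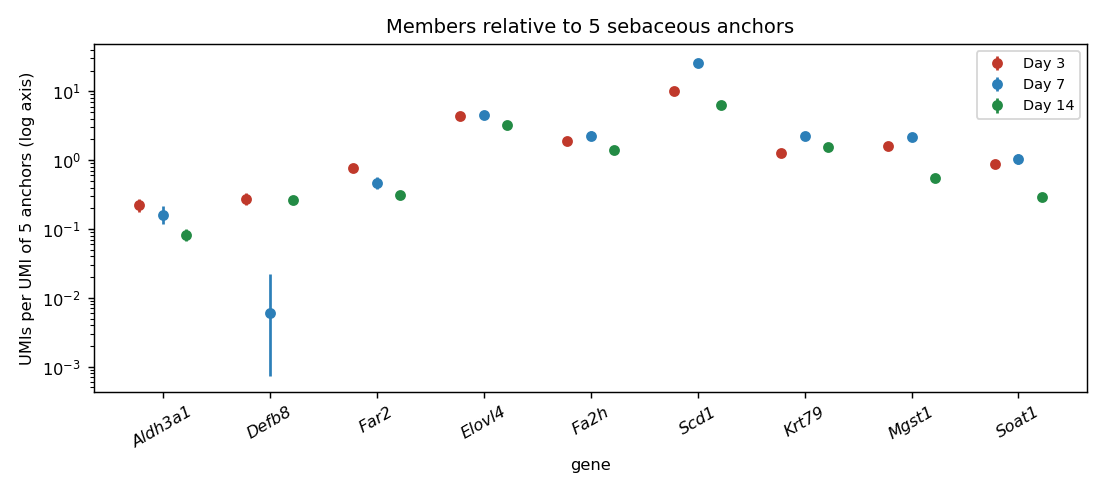
UMIs of each member per summed UMI of 5 sebaceous anchors (log axis) on Day 3 (red), Day 7 (blue) and Day 14 (green), with 95% intervals. *Defb8* drops from 0.270 to 0.00610 on Day 7 and stands at 0.264 on Day 14, whereas *Elovl4* keeps 4.44, 4.50 and 3.22.

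*Defb8* had the highest share of its UMIs in its richest spots on Day 3 and Day 14, and *Aldh3a1* on Day 7, when *Defb8* could not be ranked. On Day 3, the 33 richest spots (the top 5%, ranked for each gene by itself) held 98.4% of the *Defb8* UMIs, which lay in 35 spots in all, 77.1% of those of *Aldh3a1*, 75.5% of *Fa2h* and 69.4% of *Far2*, and 1 spot alone held 26.4% of the *Defb8* UMIs. The lowest such share on Day 3 was 55.8%, for *Mgst1*, and the median over the 5669 genes with at least 50 UMIs was 58.4%. On Day 7, the 27 richest spots held 29.5% of the *Elovl4* UMIs and 16.7% of those of *Scd1*, which had UMIs in 517 of 549 spots, beside a median of 37.1% over all genes, and 66.0% of those of *Aldh3a1*. On Day 14, the 35 richest spots held 68.8% of the *Defb8* UMIs, with 83 of 384 in a single spot, and 36.1% of those of *Elovl4*, beside a median of 41.1%. A gene with few UMIs lies in few spots and has a high share by that alone, as *Aldh3a1* did on Day 7, with 53 UMIs in 45 spots. The medians over all genes were not matched for the number of UMIs, so a high share cannot be read as clustering. Day 3 was the shallowest section, and the part of depth in the fall of these shares was not tested.

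At an equal depth of 1000 UMIs per spot, the share of spots with a UMI followed no common course over the days. *Krt79* was found in 13.6%, 12.4% and 31.1% of such spots in day order and *Fa2h* in 16.9%, 14.5% and 29.2%, both highest on Day 14. *Mgst1*, in 23.9%, 12.8% and 12.8%, and *Soat1*, in 14.6%, 7.62% and 8.39%, were highest on Day 3. *Scd1* was in 62.4%, 82.1% and 71.3% and was thus highest on Day 7, with the 3 intervals clear of each other.

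The section maps show 2 bright patches of the members along the upper left edge of the Day 3 tissue, a diffuse pattern on Day 7, and a band parallel to the lower edge on Day 14. The anchors were bright in the same patches and band. *Scd1* gave 8412 of the 12615 member UMIs under tissue on Day 7. Of the 26 spots of Day 3 with the highest share of member UMIs (the top 5% of those with at least 500 UMIs), 20 lay in the upper part of the map, with 525 anchor UMIs, and *Scd1* made up 42.0% of their member UMIs. The other 6 lay deeper, at over 50 pitches on the vertical axis, a line drawn after the map was seen. They held 593 member UMIs, of which 95.1% were *Scd1*, with 2 anchor UMIs and 26 of *Adipoq* among 24623 UMIs of all genes. The 20 upper spots held 25 *Adipoq* UMIs among 186588. Isolated bright dots at the right end of the Day 3 section are spots of very few UMIs, in which 1 to 3 member UMIs give a high proportion.

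**Figure D3:**
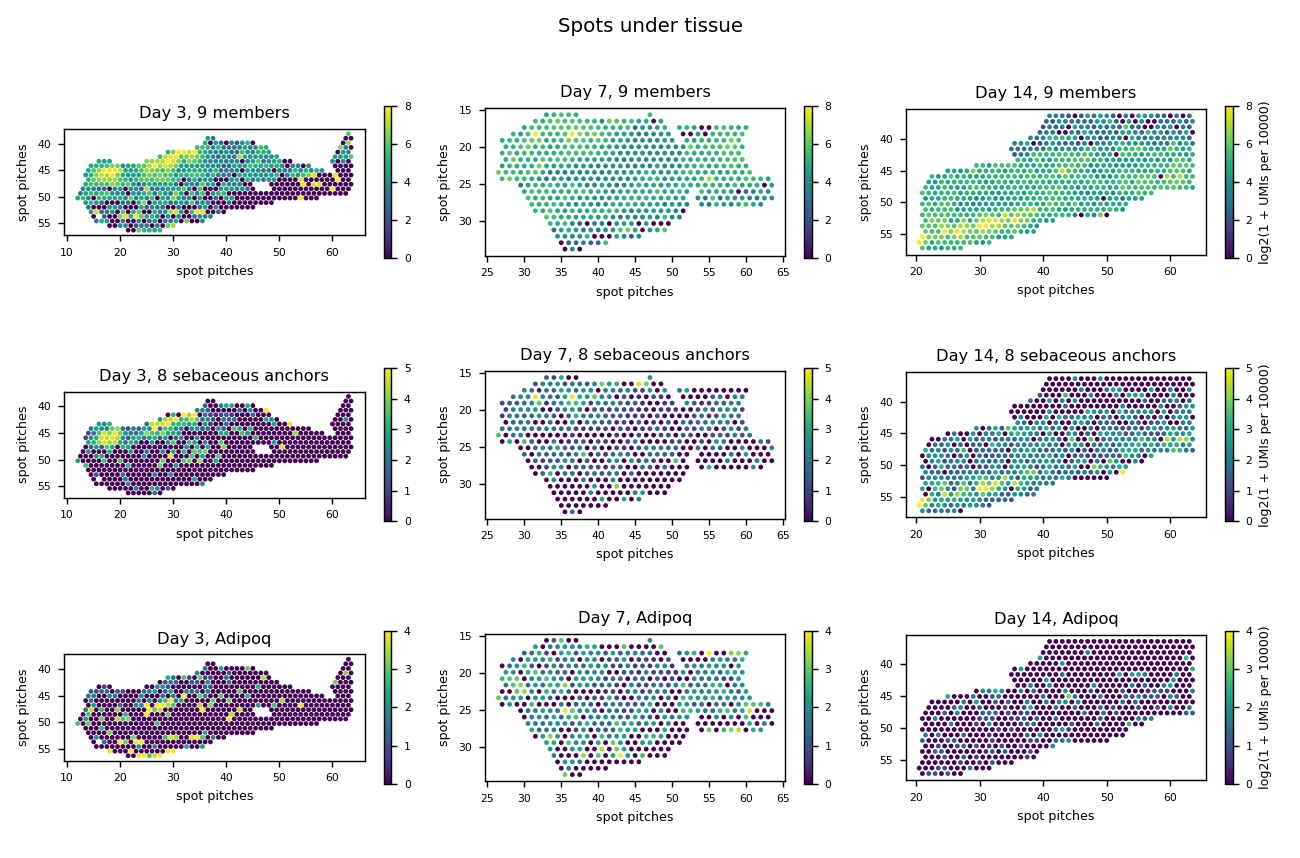
Spots under tissue on Day 3, Day 7 and Day 14, placed in units of the spot pitch and coloured by log2(1 + UMIs per 10000) of the 9 members (top), the 8 sebaceous anchors (middle) and *Adipoq* (bottom), with each row on its own colour scale and values above its end drawn in the end colour. The members and the anchors are bright in the same patches on Day 3 and in the same lower band on Day 14, and on Day 3 some deep spots are bright in members and *Adipoq* but not in anchors. *Adipoq* is scarce on Day 14, with 202 UMIs.

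Clustering was measured with Moran's I, which is near 0 when the levels of adjacent spots are unrelated and approaches 1 when neighbours are alike. On Day 3, all 9 members had a value of at least 0.2, beside 10.9% of the 5669 genes with at least 50 UMIs. *Fa2h* had the highest, at 0.511, followed by *Far2* at 0.492 and *Elovl4* at 0.479, and *Soat1* the lowest, at 0.273. On Day 7, 5 of the 9 passed 0.2 (*Elovl4* 0.373, *Scd1* 0.324, *Krt79* 0.283, *Fa2h* 0.245 and *Far2* 0.229), beside 3.09% of 9425 genes. *Defb8*, with its 2 UMIs, could not be ranked that day, and *Aldh3a1* stood at 0.00339.

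On Day 14, 6 members passed 0.2, beside 3.83% of 10029 genes. *Scd1* was now the most clustered, at 0.497, followed by *Elovl4* at 0.406, *Fa2h* at 0.371, *Defb8* at 0.354, *Krt79* at 0.334 and *Far2* at 0.219, whereas *Aldh3a1*, *Soat1* and *Mgst1* had 0.0911, 0.109 and 0.185. The part of spot depth in these values was not tested. After each spot was thinned to 1000 UMIs, which leaves fewer UMIs to measure, 4, 0 and 1 members stayed at 0.2 or above on the 3 days, namely *Elovl4* (0.466), *Fa2h* (0.391), *Far2* (0.294) and *Scd1* (0.265) on Day 3 and *Scd1* (0.257) on Day 14. No share of all genes was set beside these thinned counts, so they cannot be read as a trait of the members.

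**Figure D4:**
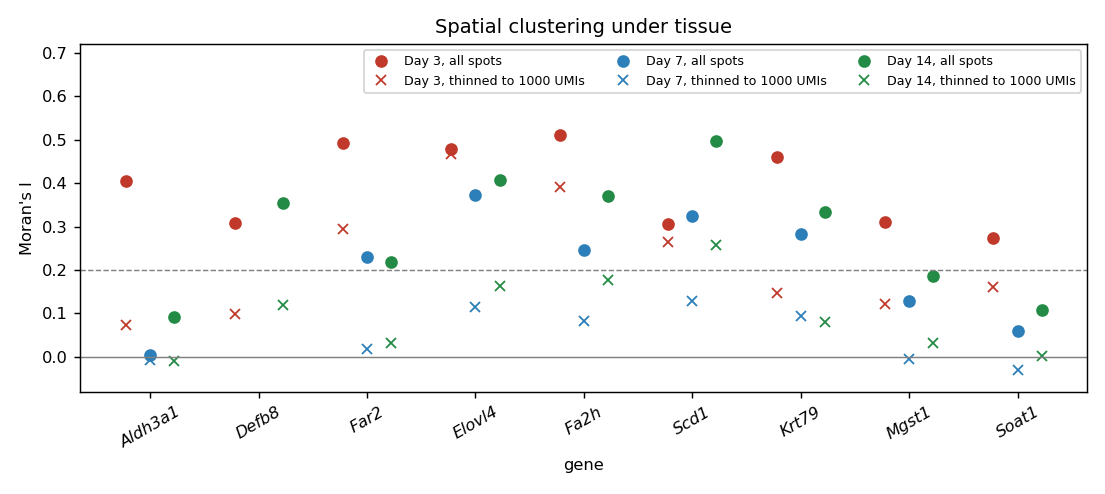
Moran's I of each member under tissue on Day 3 (red), Day 7 (blue) and Day 14 (green), from all spots (circles) and from spots thinned to 1000 UMIs (crosses), with a dashed line at 0.2 and no point for *Defb8* on Day 7. All 9 red circles lie above 0.2, and so do 4 red crosses and 1 green cross, with no thinned share of all genes set beside them.

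The spots richest in the sebaceous anchors were then compared with the other spots of the same section. These were the top 10% by anchor CPM among spots with at least 500 UMIs, 52, 54 and 69 spots in day order, and no member was used to pick them. The members and the anchors were both chosen with earlier results of these data known, so the comparison is no independent check of the members. On Day 3, all 9 members were at least 2-fold higher in the anchor-rich spots, beside 6.55% of all genes. *Defb8* had 345 CPM in them and 14.5 CPM elsewhere, a log2 ratio of 4.57, *Fa2h* 2049.9 and 181 CPM (3.50), *Far2* 770.3 and 87.9 CPM (3.13) and *Elovl4* 4284 and 541 CPM (2.99). *Krt79* (2.69), *Soat1* (2.50), *Scd1* (2.13), *Mgst1* (2.06) and *Aldh3a1* (1.40) followed. The anchor-rich spots of Day 3 were deeper, with a median of 6375 UMIs against 1933 in the others.

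On Day 7, 5 members were at least 2-fold higher in the anchor-rich spots, beside 2.24% of all genes, with log2 ratios of 2.39 for *Far2*, 2.02 for *Fa2h*, 1.88 for *Elovl4*, 1.42 for *Krt79* and 1.20 for *Aldh3a1*, whose interval (-0.03 to 2.25) held 0. *Scd1* (0.89), *Mgst1* (0.94) and *Soat1* (0.90) were higher by less than that fold, and neither *Defb8* UMI was in these spots. The anchor-rich spots of that day held 741 CPM of the anchors, those of the earlier section 2388 CPM and those of the later one 1465 CPM. In day order, *Cidea*, which fat cells also express, gave 126 of 741, 92 of 270 and 113 of 886 anchor UMIs in the anchor-rich spots. The white fat list had log2 ratios of -1.24, 0.31 and -0.33 in these spots, and the part of fat in them was not tested. With 5% in place of 10% of the spots, 8 members passed the fold on Day 7, and with spots of at least 2 anchor UMIs, 1 did. No share of all genes was set beside these other choices of spots.

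On Day 14, 8 members were at least 2-fold higher, beside 2.19% of all genes. *Defb8* again had the highest ratio, with 369 CPM against 40.2 CPM (3.20), followed by *Far2* (2.10), *Fa2h* (1263 CPM against 317 CPM), *Soat1* (1.95), *Elovl4* (1.90), *Mgst1* (1.76), *Scd1* (1.62) and *Krt79* (1.45), and *Aldh3a1* had 0.73. Of the lipid synthesis genes, 7 of 17, 3 of 18 and 7 of 20 tested were at least 2-fold higher in the anchor-rich spots on the 3 days, among them *Cers4* (3.10, 2.20 and 2.13) and *Elovl6* (2.95, 1.80 and 1.81) on every day. *Fasn* had 1.08, 0.57 and 1.26. Of the duct and infundibulum list, 1 gene passed on each day, *Sox9* (1.14) on Day 3, *Krt17* (1.04) on Day 7 and *Plet1* (1.49) on Day 14, of which *Sox9* is a stem cell factor of the follicle, *Krt17* a follicle keratin and *Plet1* a marker of the follicle opening.

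*Aldh3a1* had higher ratios in epidermis-rich than in anchor-rich spots on all 3 days, with overlapping intervals, and on Day 3 its ratio in fibroblast-rich spots (1.63, 1.04 to 2.22) lay between these. In the spots richest in epidermal markers, it had 144 CPM against 40.1 CPM elsewhere on Day 3, a log2 ratio of 1.85, 37.6 against 9.95 CPM on Day 7 (1.92), and 56.2 against 20.8 CPM on Day 14 (1.43). For *Defb8*, the same ratios in epidermis-rich spots were 0.26 on Day 3 and -0.23 on Day 14. On Day 3, 12 of the 52 anchor-rich spots were also epidermis-rich, and on Day 7 and Day 14, 9 of 54 and 5 of 69 were. All members detected there had a lower level in muscle-rich spots than elsewhere, with log2 ratios on Day 14 between -1.32 for *Aldh3a1* (-4.38 to 0.56, from 2 UMIs there) and -4.02 for *Defb8*.

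Distance from the epidermis, a measure chosen after the data were seen, set the members apart from fat on Day 3 and Day 14 more than on Day 7. The mean distance of a UMI from the nearest epidermis-rich spot on Day 14 was 1.76 spot pitches for *Krt10*, a keratin of the suprabasal epidermis, 2.15 for *Defb8*, 2.51 for *Aldh3a1*, 2.88 for *Far2* and 3.32 for *Mgst1*, the farthest member. *Defb8* thus lay nearer than *Aldh3a1*, although it was not higher in the epidermis-rich spots themselves. The distance was 4.03 for *Krt71*, 4.49 for *Adipoq* and 4.30 for all UMIs. On Day 3, the members lay between 0.697 (*Aldh3a1*) and 1.84 (*Scd1*) pitches, *Adipoq* at 3.45 and all UMIs at 2.19. On Day 7 they lay between 1.95 (*Aldh3a1*) and 2.71 (*Mgst1* and *Soat1*), near *Adipoq* at 2.80 and all UMIs at 2.88. *Krt10* itself lay at 2.01 on Day 7, against 0.606 on Day 3, so the measure had less range on Day 7.

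*Krt71*, a keratin of the inner root sheath, marks the growing hair follicle. Its UMIs under tissue numbered 0, 1 and 6874 in day order, so that overlap with it could be measured on Day 14 alone. It was found in 606 of 697 spots on that day, and in 36.2% of the muscle-rich spots, with a median of 2742 UMIs in those spots and 4827 in the section. All 9 members were at least 2-fold higher in spots with *Krt71* than in those without it, but so were 43.6% of all genes, and the spots without it were shallower, with a median of 2381 UMIs against 5567.

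In the 10% of spots richest in *Krt71*, a choice added after the data were seen, the order was the opposite. The members had log2 ratios from -0.25 (*Mgst1*, -0.54 to 0.04, an interval that held 0) to -1.31 (*Aldh3a1*), and 2 of them, *Aldh3a1* and *Defb8* (-1.30), were at least 2-fold lower, beside 3.12% of all genes. *Krt79* had 404 CPM in them and 504 CPM elsewhere, and *Scd1* 1618 and 2098 CPM. In the spots rich in the whole inner root sheath list, the ratios were nearer 0, with 0.01 for *Krt79*, -0.08 for *Fa2h* (-0.25 to 0.09), -0.10 for *Mgst1* and -0.51 for *Defb8*, and only *Aldh3a1* (-1.11) was at least 2-fold lower. Of the 69 richest spots of each member, between 2 (*Far2*) and 5 were also among the 69 richest in *Krt71*, a set that holds 10% of all spots considered. Of the 69 anchor-rich spots, 9 were also rich in the inner root sheath list, 13.0% (6.14 to 23.3).

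*Adipoq* encodes adiponectin and marks fat cells. It had UMIs in 136 of 664, 378 of 549 and 158 of 697 spots in day order, and in 5.77%, 33.3% and 2.90% of the muscle-rich spots. In spots with at least 1 *Adipoq* UMI on Day 3, 5 members were at least 2-fold higher, *Defb8* (2.38), *Scd1* (1.42), *Elovl4* (1.31), *Fa2h* (1.09) and *Krt79* (1.09), and none was lower, beside 2.89% and 1.59% of all genes. These spots held a median of 3864 UMIs against 1190 in the others. On Day 7, none of the 8 members other than *Defb8*, whose 2 UMIs allow no call, was higher or lower by that fold, beside 1.95% and 0.520% of all genes, and on Day 14 none was higher or lower, beside 0.249% and 0.449%.

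Ranked by *Adipoq* level rather than by presence, the members split on Day 3. In the 10% of spots richest in *Adipoq* on Day 3, 7 of the 9 members were at least 2-fold lower, beside 20.6% of all genes, with log2 ratios from -1.60 for *Krt79* to -3.46 for *Defb8*. *Scd1* was higher, with 6252 CPM against 2445 CPM elsewhere (1.35), and so was *Mgst1*, with 620.2 against 421 CPM (0.56). The white fat list gave the same split on Day 3, with 1.53 for *Scd1* and 0.65 for *Mgst1*, and from -1.69 to -3.66 for the other 7. On Day 7 the split was not seen in the *Adipoq*-richest spots. Of the members, *Far2* had 0.66 (-0.25 to 1.45), *Fa2h* 0.61 (0.22 to 0.97), *Soat1* 0.60 (0.01 to 1.14), *Scd1* 0.47 and *Mgst1* 0.07. Only *Aldh3a1* was past the fold downward (-1.72, -7.05 to 0.82), with 1 UMI in these spots and an interval that held 0, beside 8.47% of all genes. On Day 14, *Defb8* (-1.04) and *Far2* (-1.02) were at least 2-fold lower, beside 4.60%, and *Scd1* had -0.01. The *Adipoq*-richest spots of Day 14 held only 99 *Adipoq* UMIs. In the spots rich in the white fat list on Day 7, *Scd1* had 0.70 (0.61 to 0.80), and the intervals of the other members detected there held 0. In those of Day 14, *Scd1* had -0.29 and *Mgst1* -0.66, and the other 7 ranged from -1.02 (*Soat1*) to -2.81 (*Aldh3a1*). No share of all genes was set beside the white fat values.

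**Figure D5:**
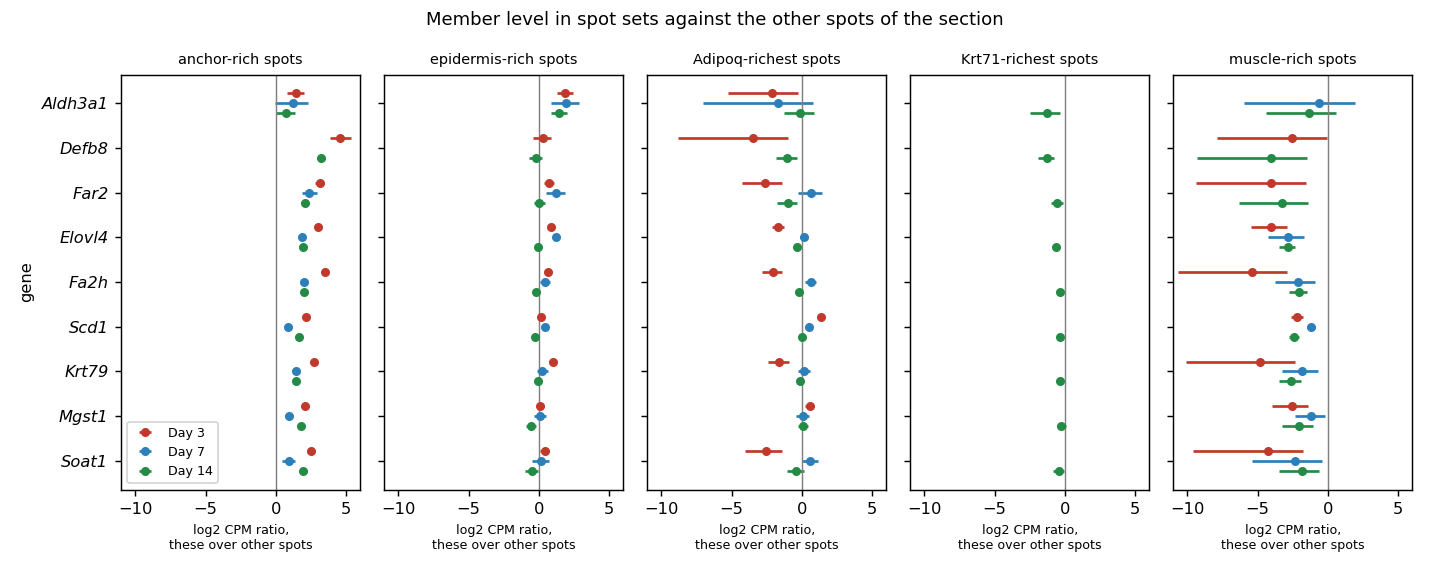
Log2 ratio of each member's CPM in a set of spots over the other spots of the section on Day 3 (red), Day 7 (blue) and Day 14 (green), with 95% counting intervals, for spots rich in sebaceous anchors, epidermis markers, *Adipoq*, *Krt71* (Day 14 only) and muscle markers, with no point where one side had no UMI. Points lie right of 0 in the anchor-rich panel and left of 0 in the *Krt71*-richest and muscle-rich panels, and among the red points of the *Adipoq*-richest panel only *Scd1* (1.35) and *Mgst1* (0.56) lie right of 0.

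Outside the marked tissue, most members were scarcer than under it. On Day 3, 7 members were at least 2-fold lower outside, beside 15.9% of all genes, with log2 ratios of outside over under tissue from -1.54 (*Soat1*) to -2.87 (*Defb8*). On Day 14, 6 were, beside 13.7% of all genes, from -1.16 (*Far2*) to -1.58 (*Defb8*), and *Soat1* had -0.97. On Day 7, *Fa2h* (-1.18) and *Soat1* (-1.01) were, beside 8.91%, and *Defb8*, with no UMI outside and 2 under tissue, could not be called.

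*Scd1* and *Mgst1* were the exceptions on Day 7. *Scd1* had 3722 CPM outside and 1893 CPM under tissue on that day, a log2 ratio of 0.98 (0.94 to 1.01), against -0.90 on Day 3 and -0.55 on Day 14. *Mgst1* had 242 and 158 CPM, a ratio of 0.61 (0.48 to 0.74), against -0.46 and -0.61. The fat genes *Adipoq*, with 3617 UMIs outside and 893 under tissue (1.48, 1.37 to 1.59), and *Cidea* (1.39, 1.20 to 1.58) were also higher outside on Day 7, and *Adipoq* was higher outside on Day 3 (0.92) and Day 14 (1.40) too. A single outside spot of Day 7 held 487 *Scd1* UMIs, against at most 89 in a spot under tissue. Over the whole slide, *Scd1* was higher on Day 7 than on Day 3, with a log2 ratio of 0.50, the reverse of its order under tissue.

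The correlation between members over spots was highest on Day 3. No other pairs of genes were set beside it, so it cannot be read as a trait of the members. The Pearson correlation of log levels over the 664 spots of Day 3 had a median of 0.394 over the 36 pairs, from 0.255 (*Aldh3a1* and *Soat1*) to 0.602 (*Far2* and *Fa2h*). On Day 14, over 697 spots, the median was 0.289, and the highest pair was *Elovl4* and *Scd1* at 0.573. On Day 7, over 549 spots and the 28 pairs without *Defb8*, it was 0.195, with *Elovl4* and *Scd1* again highest at 0.431. Spots of one section share a library and differ in depth, and after thinning to 1000 UMIs the medians were 0.240, 0.0528 and 0.0779 on Day 3, Day 7 and Day 14. *Aldh3a1* was the loosest member, with a median r with the others of 0.296, 0.0762 and 0.166.

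The genes most like single members were named by the highest correlation over spots. On Day 3, *Lhpp*, a phosphatase, was the nearest gene to *Far2* (0.568), *Fa2h* (0.626) and *Soat1* (0.472), *Msmo1*, of cholesterol synthesis, to *Elovl4* (0.609) and *Krt79* (0.562), *Fasn* to *Scd1* (0.443), *Rarres1* to *Defb8* (0.426) and *Hsd17b12* to *Mgst1* (0.458). On Day 14, *Fabp5*, a fatty acid binding protein, was nearest to *Elovl4* (0.561), *Krt5* to *Krt79* (0.500), *Sdr16c6* to *Far2* (0.356), *Echdc1* to *Defb8* (0.340), *Cers4* to *Mgst1* (0.339) and *Gm49980* to *Aldh3a1* (0.239).

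On Day 7, *Elovl6* was nearest to *Far2* (0.342) and *Fa2h* (0.437), *Krt15*, a keratin of basal and follicle stem cells, to *Elovl4* (0.471), *Cfd*, the adipsin of fat cells, to *Scd1* (0.567), *Sdr16c6* to *Krt79* (0.362), and *Perp* (0.281), *Sec24d* (0.249) and *Mtmr11* (0.243) to *Mgst1*, *Soat1* and *Aldh3a1*. The genes nearest to the members' sum differed by day. Among the first 5 were *Sparc* (0.540), *Col1a2*, *Col1a1*, *Msmo1* and *Apoe* (0.510) on Day 3, *Cfd* (0.618), *Fasn*, *Fabp4*, *Lgals7* and *H2-K1* (0.503) on Day 7, and *Apoe*, *Col1a1*, *Krt5* and *Krt14* (0.598) on Day 14. These correlations share the spots, their library and their depth. With the markers set beside them, the members' sum had an r of 0.306, 0.261 and 0.170 with *Adipoq* on the 3 days and of 0.494 with *Krt71* on Day 14.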

How the data were processed

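Per the submitters' processing notes, the authors made the UMI counts with Space Ranger 1.3.0 on mm10, and the deposited counts are raw, per gene and spot, with the spots under tissue marked in the deposited position lists. UMIs of a gene were summed over spots and divided by all UMIs (CPM). Sums carry exact Poisson intervals, shares Clopper-Pearson intervals and ratios exact conditional binomial intervals, which hold no variation between animals. A call was a fold of 2, and backgrounds took genes with at least 50 UMIs. Spot sets rich in a list were the top 10% by CPM among spots with at least 500 UMIs. Moran's I over the 6 adjacent spots and Pearson's r used log1p of UMIs per 10000, and thinning drew 1000 UMIs per spot (seed 1), leaving out 238, 24 and 18 shallower spots. The ratios with their intervals and Moran's I were tested on simulated data, and the thinning was checked for its totals. Spots are regions of several cells and no cell-type makeup was estimated.

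The members and all lists were chosen with earlier results of these data known. The rule for naming genes took the 9 members, *Krt71*, *Adipoq*, the anchors, up to 5 genes of a list with the most UMIs, and the genes nearest by correlation; *Krt10*, *Sox9*, *Plet1*, *Acaca* and *Fads2* were named after their values were seen. Some of the genes nearest by correlation are not reported here. Alternatives used TMM factors (edgeR 4.0.16) and size factors (DESeq2 1.42.0) as scalings without any test, other weights, denominators, filters and spot sets. Python 3.11.15 with numpy 2.4.6, scipy 1.17.1 and pandas 2.3.3 was used. Gene positions came from the GENCODE annotation of GRCm38 and promoters from RefSeq.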

Additional observations from a re-analysis of the deposited data

Results flagged for a closer look

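*Scd1* and *Mgst1* stood on opposite sides of the tissue outline on different days. The log2 ratio of CPM outside over under the marked tissue in day order was -0.90, 0.98 and -0.55 for *Scd1*, and -0.46, 0.61 and -0.61 for *Mgst1*, with every interval clear of 0. The difference between the days was not tested, because each day had 1 section. *Adipoq* was higher outside on each of the 3 days (0.92, 1.48 and 1.40), and *Cidea* on Day 7 (1.39) but not on Day 3 (-2.06). The signs were the same for both genes with outside spots at least 2 pitches from the marked tissue, with spots of at least 500 UMIs, and without the richest spot.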

How the results depend on the processing

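No paired analysis was possible because each day had 1 section. Of the 131 recomputed member counts and medians, 96 stayed within the limits set for them and 35 moved. Of the 635 recomputed single values, 52 reversed, and the cause was not tested unless stated. For most alternatives no share of all genes past the fold was set beside the member counts, which then cannot be read as a result about the members.

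With the mean of spot CPM, 4 members were at least 2-fold lower on Day 7 than on Day 3 and 1 on Day 14 than on Day 3, and log2 ratios turned to 0.12 (*Scd1*, Day 7 over Day 3), 0.30 (*Elovl4*) and 0.51 (*Fa2h*, both Day 14 over Day 3) and -0.23 (*Scd1*, Day 14 over Day 7). *Scd1* for Day 14 over Day 7 also turned to -0.01 with TMM factors, -0.03 with DESeq2 size factors and -0.81 over the whole slide, where its Day 7 over Day 3 value was 0.50 and 2 members were at least 2-fold lower on Day 14 than on Day 3. Without a filter on low genes, the share of all genes past the fold was higher (19.6% higher and 15.1% lower for Day 7 over Day 3).

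Other denominators, chosen after the data were seen, turned more of the orders between days. Per *Krt5* and *Krt14* UMI, 3 members were at least 2-fold lower on Day 7 than on Day 3 and 1 was higher on Day 14 than on Day 7. *Scd1* turned to 0.35 in the former comparison and to -0.97 in the latter, where *Soat1* turned to -0.79. *Mgst1* also had fewer UMIs per keratin UMI on Day 14 (0.0431) than on Day 7 (0.0816). Per UMI of the 5 sebaceous anchors, which themselves differed between days, 1 member was at least 2-fold higher and 1 lower on Day 7 than on Day 3. The values there were 0.02 (*Elovl4*), 0.27 (*Fa2h*), 1.34 (*Scd1*), 0.79 (*Krt79*), 0.41 (*Mgst1*) and 0.23 (*Soat1*). For Day 14 over Day 7, 1 was higher and 3 lower, with -0.97 (*Aldh3a1*), -0.60 (*Far2*), -0.48 (*Elovl4*), -0.71 (*Fa2h*), -2.00 (*Scd1*), -0.51 (*Krt79*), -1.95 (*Mgst1*) and -1.82 (*Soat1*).

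After thinning, which leaves fewer UMIs, Moran's I stayed at 0.2 or above for 4, 0 and 1 members on Day 3, Day 7 and Day 14, with no thinned share of all genes beside these counts. The median r between members was then 0.240, 0.0528 and 0.0779. In spots with *Krt71* on Day 14, thinning left 0 members at least 2-fold higher, with -0.24 for *Defb8*, -0.45 for *Far2* and -0.30 for *Soat1*. In the spots richest in *Krt71*, 0 were higher, and the values were -1.31 (*Aldh3a1*), -1.30 (*Defb8*), -0.56 (*Far2*), -0.61 (*Elovl4*), -0.36 (*Fa2h*), -0.37 (*Scd1*), -0.32 (*Krt79*), -0.25 (*Mgst1*) and -0.45 (*Soat1*).

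In spots with *Adipoq* on Day 3, thinning gave 3 members higher and 1 lower, with -0.43 for *Far2*, -0.39 for *Fa2h*, -0.09 for *Krt79* and -2.04 for *Soat1*. Without the richest spot of each gene 3 were higher, and with adjacent spots 8. In the 10% of spots richest in *Adipoq*, 1 was higher and 7 lower, with -2.16 (*Aldh3a1*), -3.46 (*Defb8*), -2.65 (*Far2*), -1.70 (*Elovl4*), -2.09 (*Fa2h*), -1.60 (*Krt79*) and -2.58 (*Soat1*). On Day 7, 2 were lower after thinning (*Elovl4* turned to -0.46) and 2 in the richest spots, 0 were lower without the richest spot of each gene, and with adjacent spots 9 were higher and 0 lower. The count of 9 holds *Defb8* with its 2 UMIs. Spots with *Adipoq* held a median of 8236 UMIs on Day 7, against 3029 in the others, and the part of depth was not tested. On Day 14, at least 3 *Adipoq* UMIs gave 1 higher and 1 lower, thinning 3 lower (*Elovl4* -1.01), adjacent spots 2 higher, and the richest spots 2 lower, with *Elovl4* at -0.32, *Scd1* at -0.01 and *Krt79* at -0.12.

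In anchor-rich spots on Day 7, 8 members were at least 2-fold higher with the richest 5% of spots and 1 with at least 2 anchor UMIs. The counts for spots outside the tissue were 7 to 8 on Day 3, 2 to 4 on Day 7 and 6 to 7 on Day 14. These Day 7 counts of lower members, and those for *Adipoq*, may hold *Defb8* with its 2 UMIs.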
